A study of Saccharomyces cerevisiae with 12 samples.

Results

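The AAD genes of Saccharomyces cerevisiae are a family of putative aryl-alcohol dehydrogenases. The members were the 7 annotated family names, AAD3 (YCR107W), AAD4 (YDL243C), AAD6 (YFL056C), AAD10 (YJR155W), AAD14 (YNL331C), AAD15 (YOL165C) and AAD16 (YFL057C), matched by systematic name among the 7126 features of each library. All 7 were found, and 6 of them passed the filter for testing, a mean of at least 1 RPKM (reads normalised to feature length and library size) over the 12 libraries. AAD15 did not pass. In the libraries labelled esa1∆ sds3∆ and esa1∆ epl1∆ sds3∆, AAD3, AAD4, AAD10 and AAD14 were lower than in wild type and AAD6 and AAD16 were higher. In those labelled epl1∆ sds3∆ the same 4 genes were lower and AAD16 was higher with a call that most other settings ended. AAD6, at 138% of WT there, did not pass the test. No tested member was called in the comparisons between mutants.

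The Aad proteins belong to the aldo-keto reductases, enzymes that use NADPH to reduce aldehydes and ketones to alcohols. They are named for their similarity to an enzyme of the lignin-degrading fungus Phanerochaete chrysosporium that reduces aromatic aldehydes, and their substrates in yeast are not established. AAD4 and AAD6 are known to be induced by oxidants of thiol groups through the transcription factor Yap1, and most of the family lies near chromosome ends.

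Ribosomal RNA-depleted total RNA of W303 MATα cells, grown to mid-log phase in synthetic complete (SC) medium at 24 °C, was sequenced in 4 groups of 3 libraries described as biological triplicates. The groups were wild type (WT), epl1∆::kanMX sds3∆::natMX, esa1∆::HIS3 sds3∆::natMX, and the strain with all 3 deletions. Esa1 is the catalytic subunit of the histone acetyltransferase NuA4, Epl1 holds Esa1 in its core module (piccolo NuA4), and Sds3 is a subunit of the histone deacetylase complex Rpd3L; the series was designed around strains that live without piccolo NuA4. No group carried sds3∆ alone, so the share of sds3∆ in any difference from WT cannot be told apart from that of the other deletions.

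The libraries held 8089178 to 14527279 reads behind the RPKM values, and 1 read on 1 kb was worth 0.0688 to 0.124 RPKM. EPL1 had 4 to 13 reads in the 6 libraries labelled epl1∆ and 62 to 142 in the others, and ESA1 had 1 to 3 reads in the 6 labelled esa1∆ and 158 to 310 in the others. SDS3 had 112 to 158 reads in WT and 36 to 77 in the 9 libraries labelled sds3∆, so it did not go to near 0 there. Reads are not adjusted for depth. In RPKM the fall was smaller, from 8.71 to 11.2 in WT to 4.04 to 7.88 in those 9 libraries. SDS3 reads thus check the sds3∆ label less well than EPL1 and ESA1 reads check theirs. These libraries are called by their labels throughout. The MATα-specific genes MF(ALPHA)1 (719 to 5562 reads) and STE3 (654 to 2168 reads) were high in all 12 libraries, while the MATa-specific MFA1 had 0 to 9 reads and STE2 12 to 42.

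Of the 7 names, 6 loci were distinct. In the S288C reference (R64, the sequence of sacCer3), AAD6 and AAD16 are 2 open reading frames (ORFs) of 639 and 459 bp on the minus strand of chrVI (15431 to 14793 and 14763 to 14305), separated by 29 bases, and the annotation joins them as 1 pseudogene. The deposited values count them as separate features with those ORF lengths. AAD14 (chrXIV:16118-17248, minus strand) and AAD3 (chrIII:313890-314981, plus strand) have the long ORFs, of 376 and 363 codons before the stop. AAD4 (chrIV:17577-18566, minus strand) and AAD10 (chrX:727405-728271, plus strand) have shorter ORFs of 329 and 288 codons, and AAD15 (chrXV:1647-2078, minus strand) has 143.

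The short ORFs aligned with parts of AAD14. The sequences around the first codon of AAD14 are shown to mark where the shorter members differ at the start, with the codon aligned to the AAD14 ATG in capitals; they are from RefSeq R64, coding strand, chrXIV:17204-17263, chrVI:15387-15446, chrIV:18660-18719 and chrX:727126-727185 in that order, and W303 may differ.
AAD14: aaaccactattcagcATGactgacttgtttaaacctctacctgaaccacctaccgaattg
AAD6: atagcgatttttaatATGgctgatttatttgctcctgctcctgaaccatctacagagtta
AAD4: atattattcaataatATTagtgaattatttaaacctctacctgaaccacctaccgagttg
AAD10: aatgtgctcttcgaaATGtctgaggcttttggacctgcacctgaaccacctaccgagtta
AAD4 carried the substitution G3T in that codon, counted from 1 at the A of the AAD14 ATG, and its own annotated ATG lay 138 bases downstream. AAD10 kept an ATG there and had an in-frame stop at codon 77, and its annotated ATG lay 264 bases downstream of the aligned one.

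The stop of AAD10 is shown in capitals beside the aligned AAD14 codon (chrX:727339-727401 and chrXIV:16988-17050).
AAD14: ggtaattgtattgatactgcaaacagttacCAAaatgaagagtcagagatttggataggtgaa
AAD10: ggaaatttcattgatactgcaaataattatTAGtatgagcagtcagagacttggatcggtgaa
The AAD6 ORF ended at codon 213. Upstream of that stop, AAD6 was 1 base shorter than AAD4 in a run of G, which had 3 bases in AAD4 and 2 in AAD6 (capitals; chrIV:18157-18219 and chrVI:14885-14946).
AAD4: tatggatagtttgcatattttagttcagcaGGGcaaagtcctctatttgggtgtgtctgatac
AAD6: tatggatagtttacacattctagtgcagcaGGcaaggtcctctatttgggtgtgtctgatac
AAD6 and AAD16 therefore count reads from the 5′ and the 3′ part of 1 locus in this reference.

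**Figure D1:**
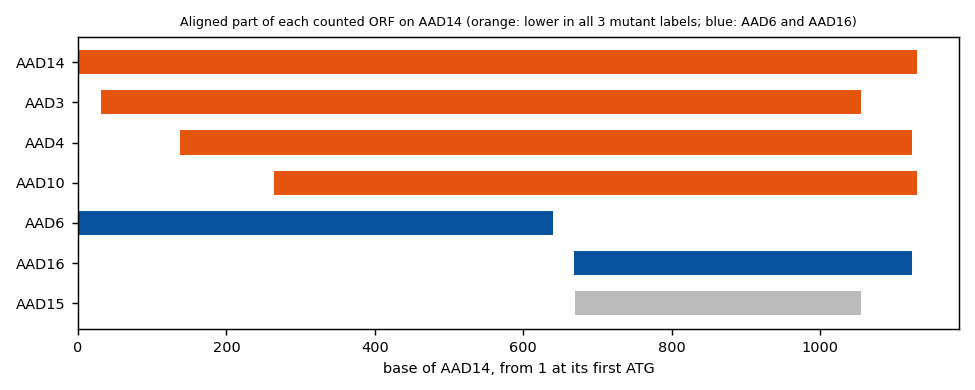
The horizontal axis gives the base of AAD14 counted from its first ATG, and each bar spans the part of AAD14 that aligned with the counted ORF of 1 member. AAD6 covers bases 1 to 640 and AAD16 bases 669 to 1124, while AAD4 begins at base 139 and AAD10 at base 265; orange bars are the 4 members lower in all 3 mutant labels, blue bars AAD6 and AAD16, and the grey bar AAD15, which was not tested.

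The members are similar enough for short reads to match more than 1 of them. AAD3 and AAD15 were identical at 97.69% of aligned bases and AAD4 and AAD14 at 90.57%. The AAD6/AAD16 locus was identical to AAD15 at 89.95% and to AAD4 at 89.26%. The lowest pair, AAD10 and AAD15, was at 77.46%. The share of 50-base windows found nowhere else in the reference was 97.6% for AAD10, 93.7% for AAD6, 91.8% for AAD14, 78.6% for AAD4, 74.2% for AAD3, 64.8% for AAD15 and 56.1% for AAD16. These shares depend on the window length. From 36 to 100 bases the share went from 39.15% to 85.28% for AAD16 and from 48.36% to 99.1% for AAD15. How reads matching several genes were counted is not given in the sources used here, so the split of reads between AAD3 and AAD15 and the values of AAD4 and AAD16 are the least certain.

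Upstream sequence is shown for AAD6 and AAD4 because both are known Yap1 targets and they moved in opposite directions in the 2 groups labelled esa1∆. Capitals mark the Yap1 element TTACTAA in either orientation, in the 300 bases before the AAD14-aligned first codon (chrVI:15432-15731 and chrIV:18705-19004, both minus strand, RefSeq R64).
AAD6: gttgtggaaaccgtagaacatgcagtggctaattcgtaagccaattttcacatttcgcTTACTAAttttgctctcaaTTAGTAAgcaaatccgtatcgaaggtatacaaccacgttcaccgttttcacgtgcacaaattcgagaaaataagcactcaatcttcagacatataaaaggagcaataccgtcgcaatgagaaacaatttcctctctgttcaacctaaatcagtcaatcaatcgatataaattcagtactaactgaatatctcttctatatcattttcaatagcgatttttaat
AAD4: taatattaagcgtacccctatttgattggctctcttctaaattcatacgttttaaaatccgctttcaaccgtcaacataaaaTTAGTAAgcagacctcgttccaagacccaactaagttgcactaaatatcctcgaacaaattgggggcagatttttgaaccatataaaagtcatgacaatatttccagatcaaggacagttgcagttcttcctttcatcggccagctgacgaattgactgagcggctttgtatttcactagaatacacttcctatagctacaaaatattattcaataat
AAD6 held 2 elements, at 242 to 236 and 223 to 217 bases before the codon, and AAD4 held 1, at 218 to 212. Of 5987 windows of 300 bases before annotated starts, 468 (7.82%) held at least 1 TTACTAA and 26 (0.434%) held 2 or more. The AAD4 element lies outside the window before its own annotated ATG, which held no TTACTAA. The windows of AAD3, AAD10 and AAD14 held none of these letters. AAD15 held the form TGACTAA at 272 to 266 bases before its ATG, a form found in 3.69% of windows. The stress element CCCCT (22.2% of windows) occurred before the aligned first codon of AAD4 at 286 to 282 and before the ATG of AAD16 at 68 to 64, and the Ume6 core GGCGGC (5.21%) before no member. Both CCCCT matches lie inside another annotated ORF, YDL242W for AAD4 and AAD6 for AAD16. A match is a description of letters only.

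Within WT, levels per length ran from AAD10 at 22.7 ± 8.62 scaled RPKM, through AAD16 at 17.1 ± 5.94, AAD6 at 15.7 ± 6.09, AAD3 at 9.61 ± 1.96, AAD4 at 7.07 ± 0.727 and AAD14 at 5.19 ± 0.828, to AAD15 at 0.339 ± 0.467 (SD, n = 3 each). Scaled RPKM are the deposited values divided by 1 factor per library, 1.02 to 1.21 in WT and 0.907 to 1.00 in the mutants. The ranges of AAD10, AAD16 and AAD6 overlapped over the libraries, as did those of AAD3 and AAD4, whereas the highest AAD14 value (6.12) lay below the lowest AAD4 value (6.37). AAD10 was the highest member in each WT library, and AAD6 or AAD16 in each mutant library. In the mutants AAD6 and AAD16, at group means of 21.6 to 32.1, were followed by AAD10 at 7.83 to 10.1 and by AAD3, AAD14 and AAD4 at 1.69 to 3.56. Less RNA per cell and fewer cells with the RNA cannot be told apart in these cultures.

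**Figure D2:**
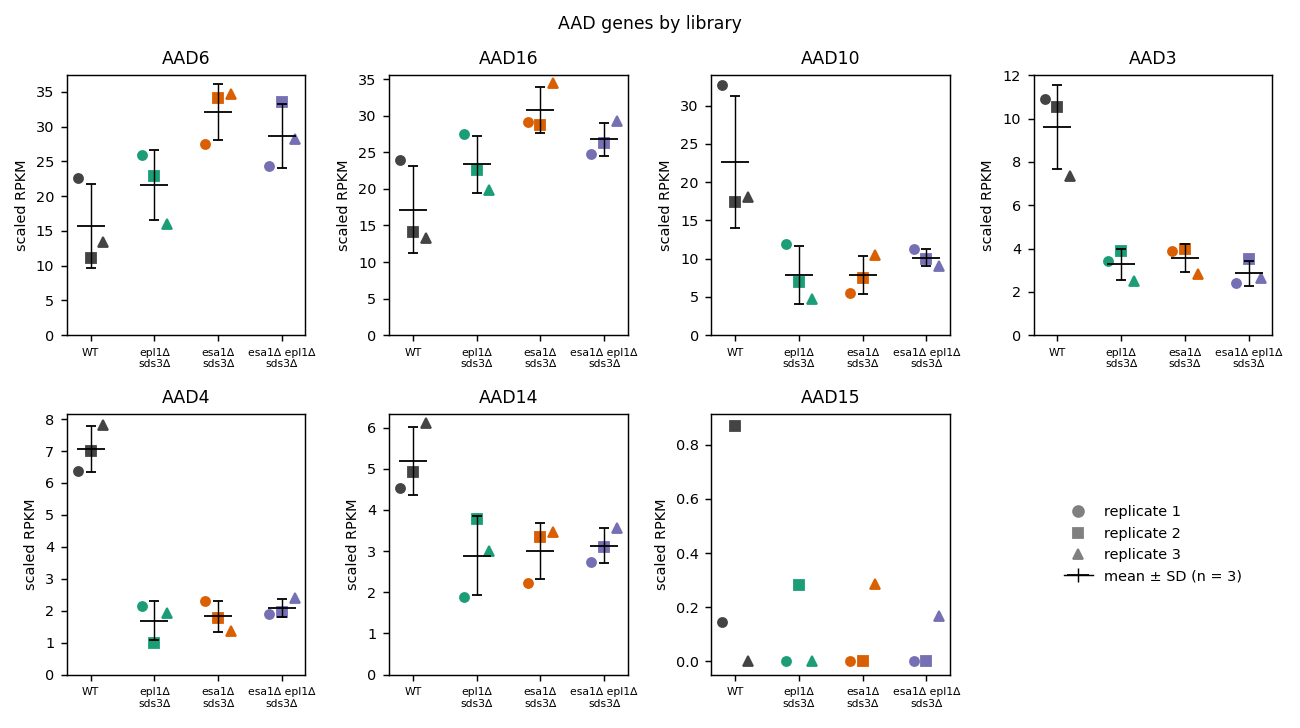
Each panel shows 1 member, with the 4 groups on the horizontal axis and scaled RPKM on the vertical axis, which differs between panels. Points are libraries, with a symbol for each replicate number, and bars give the mean ± SD of 3 libraries except for AAD15, which had 0 to 5 reads. WT lies above all 9 mutant libraries for AAD10, AAD3, AAD4 and AAD14, and WT replicate 1 lies above the other WT libraries for AAD6, AAD16 and AAD10.

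The comparisons with WT asked how expression differed in the strains that lack Epl1, Esa1 or both together with the sds3∆ label. They share the 3 WT libraries, so their values are given side by side. Differences are log2 differences of scaled RPKM + 1, tested with limma and Benjamini-Hochberg adjustment over 5954 features at a threshold of 0.05. In the libraries labelled epl1∆ sds3∆, 4 of the 6 tested members were lower, against 29.9% of all features, and 1 was higher, against 30.1%. In those labelled esa1∆ sds3∆, 4 were lower (29.7% of all features) and 2 were higher (30.0%). In those labelled esa1∆ epl1∆ sds3∆, 4 were lower (29.2%) and 2 were higher (30.1%). Calls in either direction took 60.0%, 59.7% and 59.4% of all features, so most features were called as well, and the 5 or 6 members called of 6 are no result about the family by themselves. The scaled library values of 4 of 6 members did not overlap with WT in epl1∆ sds3∆ (61.4% of all features). Those of 6 of 6 did not in esa1∆ sds3∆ (63.1%) and in esa1∆ epl1∆ sds3∆ (64.1%). With RPKM as deposited, AAD6 and AAD16 overlapped WT in those groups too. A pseudocount of 5 in place of 1 brought the differences of the low members to -0.81, -0.77 and -0.89 for AAD3, -0.85, -0.82 and -0.77 for AAD4 and -0.37, -0.35 and -0.32 for AAD14, all still called. Other settings gave larger falls. They reached -1.53, -1.43 and -1.74 for AAD3, -2.08, -1.94 and -1.72 for AAD4 and -0.92, -0.84 and -0.75 for AAD14. With 1 added before the log, the differences of low members are smaller than their percentages of WT give. The median member difference was -1.001, -0.92 and -0.81 in the 3 comparisons, and the median of all features was 0.00, -0.01 and 0.00.

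**Figure D3:**
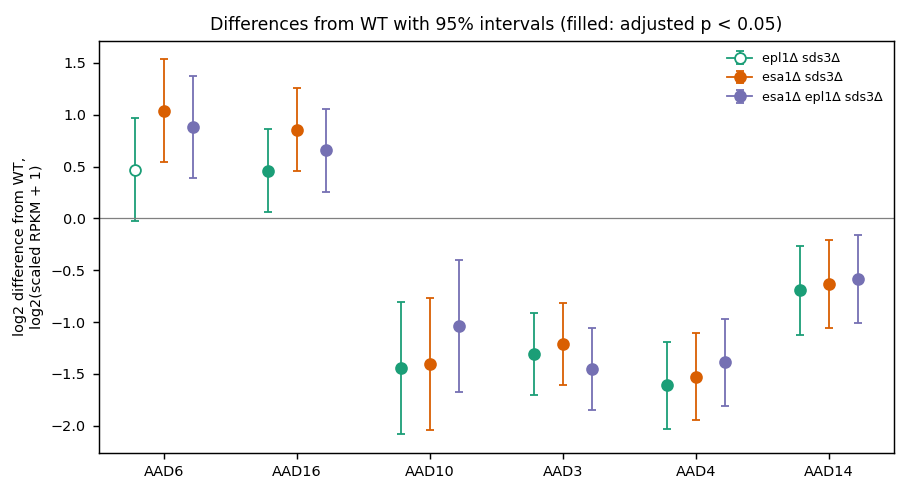
The vertical axis gives the log2 difference from WT of scaled RPKM + 1 and the horizontal axis the 6 tested members; points are limma estimates with 95% intervals, coloured by mutant label and filled where the adjusted p was under 0.05. AAD10, AAD3, AAD4 and AAD14 lie below 0 in all 3 comparisons, and AAD6 and AAD16 above 0, with AAD6 in epl1∆ sds3∆ the 1 open point.

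AAD6, the 5′ part of the split locus, had 22.6, 11.1 and 13.4 scaled RPKM in WT and 25.9, 22.9 and 16 in epl1∆ sds3∆. It had 27.4, 34.1 and 34.7 in esa1∆ sds3∆ and 24.4, 33.5 and 28.2 in esa1∆ epl1∆ sds3∆. On this scale the latter 2 groups lay wholly above WT, while WT replicate 1 lay within the range of epl1∆ sds3∆. In RPKM as deposited the latter 2 groups overlapped WT. There WT replicate 1 (27.29) lay above esa1∆ sds3∆ replicate 1 (26.85). It also lay above esa1∆ epl1∆ sds3∆ replicates 1 and 3 (24.39 and 26.93). Mean AAD6 was 205% of WT in esa1∆ sds3∆ (log2 difference 1.04, SE 0.23, limma adjusted p = 0.00171) and 183% in esa1∆ epl1∆ sds3∆ (0.88, SE 0.23, adjusted p = 0.00497). In epl1∆ sds3∆ it was 138% of WT (0.47, SE 0.23, limma adjusted p = 0.0904). This last difference depended on single libraries in both directions. It was 0.75 without WT replicate 1 (limma adjusted p = 0.00539) and 0.66 without epl1∆ sds3∆ replicate 3 (adjusted p = 0.0302), but 0.27 without WT replicate 2 (adjusted p = 0.344) and 0.33 without epl1∆ sds3∆ replicate 1 (adjusted p = 0.273).

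AAD16, the 3′ part of the same locus, had 24.0, 14.1 and 13.3 scaled RPKM in WT and 27.5, 22.6 and 19.9 in epl1∆ sds3∆. It had 29.2, 28.8 and 34.5 in esa1∆ sds3∆ and 24.8, 26.2 and 29.2 in esa1∆ epl1∆ sds3∆. As for AAD6, WT replicate 1 was the high WT library and on this scale overlapped epl1∆ sds3∆ alone. In RPKM as deposited WT replicate 1 had 28.95, above esa1∆ sds3∆ replicates 1 and 2 (28.59 and 27.43). It was also above every esa1∆ epl1∆ sds3∆ library (24.8, 26.0 and 27.89). AAD16 rose to 180% of WT in esa1∆ sds3∆ (0.85, SE 0.19, limma adjusted p = 0.00153) and to 156% in esa1∆ epl1∆ sds3∆ (0.66, SE 0.19, adjusted p = 0.00791). It was 136% of WT in epl1∆ sds3∆ (0.46, SE 0.19, limma adjusted p = 0.0456), a call that ended in 13 of 21 alternatives, over which the adjusted p ranged from 0.000726 to 0.382; without WT replicate 1 the difference was 0.72. With RPKM as deposited, which moved the median of all features by -0.24, -0.23 and -0.19 in the 3 comparisons, AAD16 differed by 0.22, 0.61 and 0.46, and the last also lost its call (adjusted p = 0.068); AAD6 in epl1∆ sds3∆ then differed by 0.23. The ratio of AAD6 to AAD16 per length was 0.785 to 1.28 over the 12 libraries.

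AAD4, with an ORF that begins inside the family frame, had 6.37, 6.999 and 7.82 scaled RPKM in WT, from 92 to 132 reads. It had 2.14, 0.986 and 1.93 in epl1∆ sds3∆, 2.31, 1.79 and 1.36 in esa1∆ sds3∆, and 1.90, 1.95 and 2.40 in esa1∆ epl1∆ sds3∆, from 8 to 33 reads. All 9 mutant libraries lay far below the lowest WT library. AAD4 fell to 23.9%, 25.8% and 29.5% of WT, with log2 differences of -1.61, -1.53 and -1.39 (SE 0.19 each) and limma adjusted p of 1.57e-05, 2.47e-05 and 4.98e-05.

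AAD10, whose annotated ORF begins downstream of an in-frame stop, had 32.7, 17.4 and 18.1 scaled RPKM in WT. It had 11.99, 6.90 and 4.72 in epl1∆ sds3∆, 5.55, 7.48 and 10.5 in esa1∆ sds3∆, and 11.3, 9.997 and 9.07 in esa1∆ epl1∆ sds3∆. All 9 mutant libraries lay below the lowest WT library, and WT replicate 1 stood apart above the other two. AAD10 fell to 34.7%, 34.5% and 44.6% of WT (-1.44, -1.40 and -1.04, SE 0.29 each), with limma adjusted p of 0.00102, 0.00124 and 0.0086. The gene next to it, YJR154W, also had its highest WT value in replicate 1, 16.6 against 8.03 and 7.78 scaled RPKM. The lowest correlation between libraries of a group was 0.984 in WT and 0.987 to 0.991 in the mutants; the part of WT replicate 1 in these levels was not tested beyond leaving it out.

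AAD3, with a long ORF near the right end of chromosome III, had 10.9, 10.6 and 7.36 scaled RPKM in WT. It had 3.42, 3.91 and 2.50 in epl1∆ sds3∆, 3.88, 3.99 and 2.81 in esa1∆ sds3∆, and 2.43, 3.53 and 2.64 in esa1∆ epl1∆ sds3∆. WT and mutant libraries did not overlap. AAD3 fell to 34.1%, 37.0% and 29.8% of WT, with log2 differences of -1.31, -1.21 and -1.45 (SE 0.18 each) and limma adjusted p of 5.91e-05, 0.000109 and 2.37e-05.

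AAD14, with the longest ORF of the family, had 4.53, 4.93 and 6.12 scaled RPKM in WT. It had 1.88, 3.78 and 3.01 in epl1∆ sds3∆, 2.23, 3.34 and 3.47 in esa1∆ sds3∆, and 2.73, 3.09 and 3.57 in esa1∆ epl1∆ sds3∆. The groups did not overlap, but the nearest mutant value, 3.78, lay closer to WT than for the other 3 members that fell. AAD14 was 55.6%, 58.0% and 60.3% of WT (-0.69, -0.63 and -0.58, SE 0.20 each), with limma adjusted p of 0.00834, 0.0139 and 0.0217. The second call ended without WT replicate 3 (adjusted p = 0.0577) or esa1∆ sds3∆ replicate 1 (0.0649). The third ended without WT replicate 3 (0.0828) or without replicate 1 (0.0742) or replicate 2 (0.0505) of esa1∆ epl1∆ sds3∆.

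AAD15, a fragment nearly identical to the 3′ part of AAD3, had 1, 5 and 0 reads in WT. Among the 9 mutant libraries, 1 library of each group had 1 read and the others had 0. A count of 0 allows up to 3 reads, or 0.483 to 0.858 RPKM at the depths of the libraries with 0 reads. A difference was therefore not detectable, and AAD15 was not tested. These limits cover counting error only.

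The comparisons between mutants asked whether the members differed by which subunit was missing. None of the 6 tested members passed in any of the 3 comparisons by limma, or by voom on recovered reads, and 0.185%, 0.134% and 0.0504% of all features were called (esa1∆ sds3∆ minus epl1∆ sds3∆, esa1∆ epl1∆ sds3∆ minus epl1∆ sds3∆, and esa1∆ epl1∆ sds3∆ minus esa1∆ sds3∆). Without adjustment 1 member would have passed at 0.05, AAD6, which was higher in esa1∆ sds3∆ than in epl1∆ sds3∆ by 0.57 (95% interval 0.07 to 1.06, limma adjusted p = 0.981), in 3 of 3 libraries. AAD16 differed by 0.39 in that comparison (95% interval -0.01 to 0.79), and its 2 groups did not overlap either, as was the case for 10.4% of all features. The intervals of AAD10 were the widest, -0.60 to 0.68 for esa1∆ sds3∆ minus epl1∆ sds3∆ and -0.23 to 1.04 for esa1∆ epl1∆ sds3∆ minus epl1∆ sds3∆.

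The make-up of the family signal differed between WT and the mutants. The summed scaled RPKM of the 7 names was 77.7 ± 20.3 in WT, 60.8 ± 12.4 in epl1∆ sds3∆, 79.21 ± 8.50 in esa1∆ sds3∆ and 73.7 ± 5.56 in esa1∆ epl1∆ sds3∆ (SD, n = 3), with overlapping ranges. AAD6 and AAD16 together held 41.5% ± 4.02 of the sum in WT and 74.1% ± 0.710, 79.4% ± 0.666 and 75.1% ± 2.02 in the mutants in the same order. Because both names count 1 locus, the sum and this share weight that locus by 2 features. AAD6 and AAD16 had higher means in the mutants, so how near the sums lie to each other depends in part on that weighting. AAD10 held 28.7% ± 3.18 in WT and 12.5% ± 3.53, 9.72% ± 2.04 and 13.9% ± 2.57 in the mutants. AAD3, AAD4 and AAD14 together held 29.3% ± 6.74 in WT and 13.3% ± 2.75, 10.7% ± 1.73 and 10.9% ± 0.50. The ratio of AAD10 to AAD6, which cancels the scaling, was 1.35 to 1.57 in WT, where replicate 1 did not stand apart, and 0.202 to 0.465 in the mutants.

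**Figure D4:**
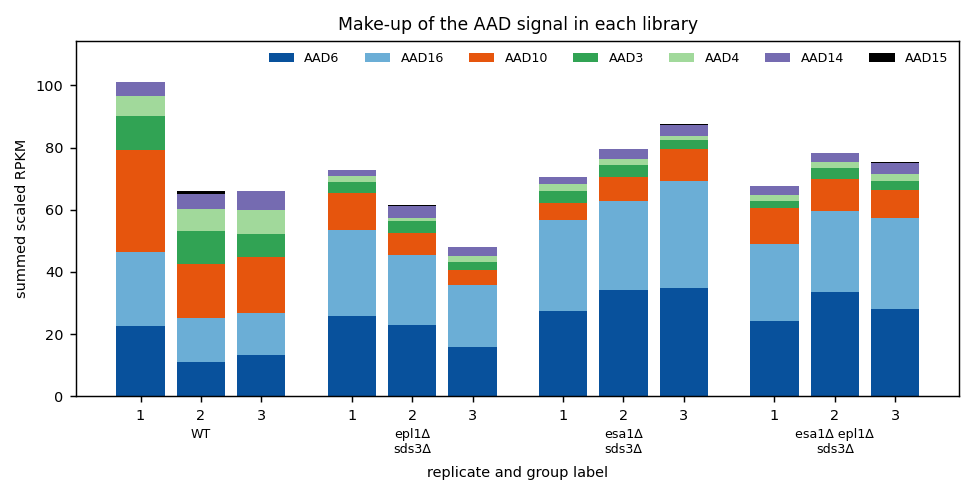
Stacked bars give the scaled RPKM of the 7 members in each of the 12 libraries, grouped by label and numbered by replicate. The sums run from 48.1 to 101 scaled RPKM, and the AAD6 and AAD16 layers fill 38.2% to 46.0% of the WT bars and 72.8% to 80.2% of the mutant bars. Each bar counts the AAD6/AAD16 locus as 2 features.

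All 7 members lie within 17.6 kb of a chromosome end, AAD3 and AAD15 within 1.65 kb and the others at 14.3 to 17.6 kb. Of 226 other protein-coding genes whose full span falls inside 20 kb of an end, 101 were tested, and 66, 65 and 64 of them were lower and 11, 8 and 9 higher than WT in epl1∆ sds3∆, esa1∆ sds3∆ and esa1∆ epl1∆ sds3∆. Over all features, 29.9%, 29.7% and 29.2% were lower and 30.1%, 30.0% and 30.1% higher. The median differences of the end genes were -0.60, -0.64 and -0.67. Most tested end genes were lower in each comparison, as were 4 of the 6 tested members, so the lean to lower was not particular to the family. The 3 end genes with the smallest adjusted p were ADH4, an alcohol dehydrogenase, PHO89, a sodium-phosphate cotransporter, and the uncharacterised YIR042C. PHO89 rose (3.82, 3.39 and 3.61; limma adjusted p at most 1.39e-08) and YIR042C fell (-3.21, -3.41 and -3.03; at most 7.36e-08). The calls of AAD6 and AAD16 were on the side of the smaller count of end genes, and those of the other 4 tested members on the side of the larger one.

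The genes flanking AAD6 and AAD16 did not rise with them. AGP3, an amino acid permease gene on the centromere side, fell from 4.45 ± 0.428 scaled RPKM in WT to 1.46 ± 0.299, 1.43 ± 0.2199 and 1.58 ± 0.536 (SD, n = 3; -1.15, -1.16 and -1.10, limma adjusted p of 0.000149, 0.00014 and 0.000211). THI5 on the other side was at 0.467 ± 0.0445 in WT and 0.321 to 0.497 in the mutants, under the filter. Members of the THI5 family, which take part in making the pyrimidine part of thiamine, also flank AAD4 (THI13), AAD10 (THI11) and AAD14 (THI12), and reads from these near-identical copies are uncertain. Of the 4, THI12 was the 1 tested, and it was lower in epl1∆ sds3∆ (-0.59, limma adjusted p = 0.0226) and not called in the others (-0.20 and -0.29).

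Among the tested flanking genes of the members that fell, YJR154W, RDS1 and RPD3 were lower in all 3 comparisons, and THI12 in 1. These genes and AGP3 are among the 101 tested end genes, of which 66, 65 and 64 were lower. Being lower was thus common there and not particular to the flanks of AAD genes. YJR154W, beside AAD10, fell from 10.8 ± 5.002 scaled RPKM to 3.46 ± 0.485, 3.29 ± 1.46 and 5.18 ± 0.735 (limma adjusted p of 0.00134, 0.000737 and 0.0187). RDS1, a zinc-cluster transcription factor gene beside AAD3, fell from 7.38 ± 1.31 to 3.11 ± 0.186, 3.64 ± 0.303 and 3.43 ± 0.662 (adjusted p at most 0.000282). RPD3, the histone deacetylase of the complex that holds Sds3, lies beside AAD14 and fell from 29.7 ± 2.71 to 19.0 ± 1.06, 19.5 ± 1.80 and 18.6 ± 1.5, or 64.0%, 65.5% and 62.6% of WT (adjusted p at most 0.000253). AAD4 had no tested flanking gene, and neither did the THI11 side of AAD10, the other side of AAD3 or AAD15, where the genes were under the filter.

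Of 8 other aldo-keto reductases tested, 2, 3 and 3 were higher than WT in epl1∆ sds3∆, esa1∆ sds3∆ and esa1∆ epl1∆ sds3∆ and 4, 3 and 3 were lower, with medians of -0.30, -0.05 and -0.06. Over all features 30.1%, 30.0% and 30.1% were higher and 29.9%, 29.7% and 29.2% lower, so these counts lie near the background. YPR1, an NADPH-dependent aldehyde reductase, fell from 81.8 ± 3.27 scaled RPKM to 44.5 ± 1.46, 46.2 ± 1.77 and 44.1 ± 3.87 (limma adjusted p at most 6.52e-06). ARA2, an arabinose dehydrogenase, fell to 52.7%, 53.5% and 48.7% of WT (at most 4.1e-05). YPR127W, a putative pyridoxal reductase, rose to 157% and 135% of WT in the 2 groups labelled esa1∆ (0.64 and 0.43, limma adjusted p of 0.000449 and 0.00688) and was not called in epl1∆ sds3∆ (0.19, adjusted p = 0.179).

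In the Ehrlich pathway, which turns aromatic amino acids into aldehydes and alcohols, and among alcohol dehydrogenases, 10, 10 and 9 of 15 genes were higher and 4, 3 and 5 lower (medians 0.37, 0.47 and 0.60). The shares of all features were 30.1%, 30.0% and 30.1% higher and 29.9%, 29.7% and 29.2% lower. ARO10, which makes aromatic aldehydes from keto acids, rose from 34.2 ± 7.60 scaled RPKM to 128.0 ± 5.77, 128.0 ± 4.50 and 109.0 ± 2.22 (1.89, 1.89 and 1.67; limma adjusted p at most 4.32e-07). ADH1, the main fermentative alcohol dehydrogenase, rose to 396%, 459% and 420% of WT, while ADH4 fell to 12.7%, 11.6% and 9.29% (-2.98, -3.12 and -3.43; adjusted p at most 2.32e-08 for both genes).

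Of Yap1 and 15 of its known targets, all 16 of them tested, 7, 8 and 7 were higher and 5, 4 and 4 lower (medians 0.17, 0.35 and 0.12). Of all features 30.1%, 30.0% and 30.1% were higher and 29.9%, 29.7% and 29.2% lower. The list went in both directions. The flavin enzyme OYE3 rose from 5.20 scaled RPKM to 21.6, 23.0 and 21.3, and the sulfiredoxin SRX1 from 0.537 to 9.98, 12.1 and 13.1 (limma adjusted p at most 4.77e-06 for both). CCP1, the mitochondrial cytochrome c peroxidase, fell to 47.3%, 47.9% and 45.1% of WT (at most 6.03e-06). YAP1 itself, named after its values were seen, was at 146%, 128% and 144% of WT (adjusted p of 0.00123, 0.015 and 0.00161).

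**Figure D5:**
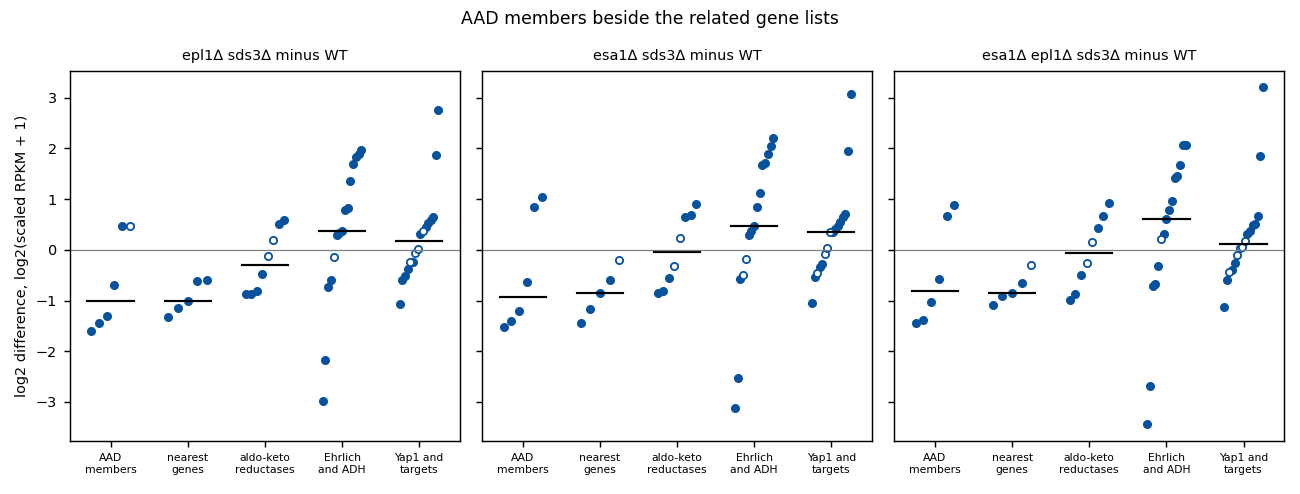
Each panel is 1 comparison with WT, and the vertical axis is the log2 difference of scaled RPKM + 1. Points are the tested members, the tested nearest genes and the genes of the 3 lists, filled where the limma adjusted p was under 0.05, and black lines are medians. The nearest genes all lie below 0, and the lists lie on both sides of it.

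The genes most like AAD6 and AAD16, the 2 members with the highest mean, were found by the root mean square difference of centred log2 values over the 12 libraries among 4894 features. For AAD6 these were DML1 (0.203), a gene of mitochondrial inheritance, TRM82 (0.230), a subunit of a tRNA methyltransferase, and SPO73 (0.244), needed for the spore wall. For AAD16 they were RPB10 (0.169), a subunit shared by the nuclear RNA polymerases, DPH1 (0.176), of diphthamide synthesis, and DPB2 (0.181), a subunit of DNA polymerase epsilon. TRM82 had 15.7 ± 5.07 scaled RPKM in WT and 26.3 ± 5.28, 28.6 ± 2.46 and 28.6 ± 2.79 in the mutants, levels near those of AAD6. Neither AAD6 nor AAD16 had the other among its candidates, since members were left out.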

How the data were processed

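Total RNA depleted of ribosomal RNA was made into stranded libraries, per the labels' protocols. The authors deposited 1 table of RPKM per library. Per the submitters' processing notes, cutadapt, Bowtie 0.12.2 and STAR were used and the builds sacCer3 and mm8 are named. Which program counted reads, whether it used strand and how it handled reads with several matches are not given in the sources used here.

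Of the 7126 features, 6079 were matched to the annotation by systematic or standard name and 1047 were not. Reads were recovered from the steps of the RPKM values (99.73% to 99.76% whole within 0.01 read). RPKM were divided by median-of-ratios factors, and log2(scaled RPKM + 1) was fitted with limma 3.58.1 (R 4.3.3) with 1 mean per group over the 12 libraries, for the 5954 features that averaged 1 RPKM or more; p-values are two-sided and adjusted by Benjamini and Hochberg. The test step was checked on simulated data with known changes in a small set of features of 1 group. That check ran without scaling, so it does not cover the scaling or a share of changed features as large as here. Sequence was read with Biopython 1.88. The alternatives were pseudocounts of 0.1 and 5, no scaling, quantile normalization, no filter, a mean of at least 5 RPKM, voom on recovered reads, a replicate block, only the 2 groups compared, and each library left out.

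Deviations of same-numbered libraries correlated by 0.118, 0.123 and 0.180 for esa1∆ sds3∆ and WT, over 0.1 in every pair, and by less than 0.1 in at least 1 pair of every other comparison. The labels give no day or batch, and correlations this weak do not establish that same-numbered libraries are paired.

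The members and gene lists were chosen with earlier results of these data known. Named were all members, the label checks, the nearest protein-coding genes, the 3 features most like each of the 2 highest members, and the 3 genes of each list with the smallest adjusted p against WT.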

Additional observations from a re-analysis of the deposited data

How the results depend on the processing

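Of 18 member differences from WT, 13 kept their direction and call under all of up to 21 alternatives, and 0 reversed. The replicate block changed no member's call; with it the esa1∆ sds3∆ comparison kept 4 members lower and 2 higher. In epl1∆ sds3∆ the count of members higher (1) was 0 with RPKM as deposited, 0 with no filter and 0 with only the 2 groups compared, and 0 to 2 when 1 library was left out (2 without WT replicate 1 or epl1∆ sds3∆ replicate 3). With a mean of at least 5 RPKM, 1 member was lower in each comparison with WT, because the filter left AAD3, AAD4 and AAD14 untested. In esa1∆ epl1∆ sds3∆ 1 member was higher with RPKM as deposited. Between mutants no member was called under any alternative run. The counts of all features called there were 11, 8 and 3; leaving out 1 library gave 7 to 18, 4 to 13 and 3 to 6, and the third was 5 with voom and 6 with only the 2 groups compared. Uncalled member differences between mutants changed sign. For esa1∆ sds3∆ minus epl1∆ sds3∆, leaving out 1 library gave AAD3 -0.0419 to 0.22, AAD4 -0.118 to 0.21, AAD10 -0.236 to 0.36 and AAD14 -0.142 to 0.22, and voom gave AAD10 -0.0134. AAD14 ranged from -0.0892 to 0.28 for esa1∆ epl1∆ sds3∆ minus epl1∆ sds3∆ and from -0.0967 to 0.14 for esa1∆ epl1∆ sds3∆ minus esa1∆ sds3∆. Where no reason is given, the cause was not tested. Depth limits AAD15 and, with 8 to 33 reads in mutant libraries, AAD4.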
